A study of Mus musculus with 6 samples.

Results

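The actin and myosin genes of the contractile cytoskeleton were followed in L929 cells that had or had not been in contact with tumour cells. The set holds 39 genes of actin filaments, of their partner proteins, of non-muscle and smooth-muscle myosin II, and of the transcription factor SRF with its cofactors. They were chosen by gene symbol from a list drawn up for their function, with earlier results of these data known. All 39 were found once each among the 21929 protein-coding genes of the deposited table. L929 is a mouse fibroblast line. All 6 libraries come from L929 cells kept in co-culture and carry the same batch label. By their labels, the cells of the 3 Biotin-negative libraries had no interaction with tumour cells. Those of the 3 Biotin-positive libraries had interacted with tumour cells named MFCSTCL, an abbreviation the labels do not spell out. No drug, allele or time point is given, the cells are 1 line, and there is no library of L929 cells grown alone. The study's title places the comparison in work on a fibroblast reaction that restrains gastric cancer through YAP and CTRB1. Values are FPKM, by definition fragment counts divided by gene length and sequencing depth, a scale meant for setting levels of different genes side by side. The denominator used for these values is not given in the sources used here, which limits such comparisons. Higher and lower, or rose and fell, refer to Biotin-positive cells against Biotin-negative cells.

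Actin monomers assemble into filaments, tropomyosin and calponin-family proteins coat the filaments, and bipolar bundles of myosin II pull on them. The ROCK kinases raise myosin light chain phosphorylation, and formins of the Diaphanous group lengthen filaments. When filaments form, free actin falls, the MRTF cofactors enter the nucleus, and SRF with MRTF switches on many genes of the same machinery through the CArG box, the DNA site that SRF binds. In activated fibroblasts this circuit is known for stress fibres and for the smooth-muscle genes that define myofibroblasts, of which Acta2 is the usual marker.

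The CArG box links SRF to its targets in sequence, so the promoters that hold one are shown here. RefSeq promoter windows on GRCm38.p6 were matched for 34 of the 39 genes, and the 250 bases before each start were searched for the CArG box, which reads the same on both strands, and, for the YAP partner TEAD, for GGAATG on both strands. An exact CArG box was present for 5 of these genes, against 1.62% of 27025 genes with a window. GGAATG was present for 11 of them, against 14.4% of genes. Of these 11, Tpm1, Tagln2, Cald1, Actn4, Flna and Flnc rose, Mylk fell, Mrtfb did not pass, and Acta2, Myh10 and Lmod1 were too low to test. Over all tested genes of the set, with or without a motif, 74.2% rose and 9.68% fell. A link between either motif and the change of a gene was not tested. A gene with several windows was counted once if any window held the motif. Actb, Actg2, Tagln, Rock1 and Diaph1 had no window and were not searched for either motif. A match is a description of the letters and does not show that a factor binds. The CArG boxes are in capitals, with flanks of up to 30 bases, each read 5′ to 3′ on the strand of the gene. They begin 90 bases before the start for Actg1 (chr11:120348546-120348615, minus strand), 56 for Cnn2 (chr10:79988514-79988583, plus strand), 50 for Myl6 (chr10:128493020-128493089, minus strand) and 161 for Myl9 (chr2:156775273-156775342, plus strand). RefSeq gives Myl6 a pair of starts, and the stretch shown precedes the downstream one and lies within the gene's interval in the deposited table, not before it. Srf itself holds a pair of CArG boxes, beginning 82 and 62 bases before its start (chr17:46556185-46556274, minus strand).
Actg1: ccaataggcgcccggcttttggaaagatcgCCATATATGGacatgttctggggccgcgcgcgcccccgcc
Cnn2: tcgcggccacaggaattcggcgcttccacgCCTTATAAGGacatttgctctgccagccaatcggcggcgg
Myl6: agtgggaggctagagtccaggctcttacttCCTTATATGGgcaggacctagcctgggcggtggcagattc
Myl9: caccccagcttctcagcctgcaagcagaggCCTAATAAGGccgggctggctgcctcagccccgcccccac
Srf: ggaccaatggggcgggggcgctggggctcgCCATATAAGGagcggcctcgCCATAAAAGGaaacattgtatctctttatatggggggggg
Of these 5 genes Actg1, Cnn2 and Myl6 rose, Srf fell and Myl9 was listed at 0 in every library, as described for each gene below.

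Before the results, the libraries were compared and the cell labels were checked. FPKM sums per library lay between 337771 and 356681, and 10724 to 10862 genes reached 1 FPKM. The values carry no read counts, so the depth is unknown. Fibroblast markers were present in part: 7 of 11 reached 1 FPKM in at least 3 libraries, among them Col1a1, Col1a2, Pdgfra and Vim, while Thy1, Dcn, Lum and Fap stayed at or below 0.448 FPKM in every library. The fibroblast markers summed to 1969 to 2019 FPKM without and 2448 to 2519 FPKM with contact. Vim and S100a4 rose among them, and Col1a1, Col1a2, Col3a1, Pdgfra and Pdgfrb fell. Of 18 epithelial markers only Krt7 and Krt8 reached that level. The summed epithelial markers were 0.760 to 0.929 FPKM in Biotin-negative and 45.6 to 47.8 FPKM in Biotin-positive libraries. In the latter Krt7 (24.7 FPKM) and Krt8 (20.8 FPKM) made up nearly all of the sum, while Cdh1 and Epcam, which define epithelial cells, had means of at most 0.0142 FPKM, and Krt5 and Krt20 were listed at 0 in all 6. Summed macrophage markers were 11.8 to 15.2 and 14.7 to 17.8 FPKM, and 3 of the 9 were tested. Cd14 (3.40 to 6.39 FPKM) and Lyz2 (1.36 to 2.42 FPKM) rose and Cd68 fell (8.59 to 7.13 FPKM), a call lost in 6 alternatives, while Ptprc had means of 0.0178 and 0 FPKM and Adgre1 was listed at 0. The endothelial markers reached 1 FPKM in at least 3 libraries for 0 of 7 genes. The epithelial and fibroblast sums separate the same groups as the changes below, and their part in those changes was not tested.

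Most of the broadly expressed, non-muscle members of the machinery rose. The smooth-muscle genes Acta2, Actg2, Tagln, Cnn1, Myl9 and Lmod1 and the heavy chain genes Myh10 and Myh14 were near 0 in both groups. Of the 39 genes, 31 had at least 1 FPKM in at least 3 libraries and were tested, and all 31 had at least 1 FPKM in every library. Of these, 23 rose, 3 fell and 5 did not pass (limma, Benjamini-Hochberg adjusted over 11029 genes, threshold 0.05). That is 74.2% higher and 9.68% lower, where 37.8% of all tested genes were called higher and 36.1% lower. Since the genes were chosen with earlier results of these data known, this contrast describes the set and does not test it. The median log2 difference was 0.52 over the tested members and 0.01 over all tested genes, whose interquartile range was -0.30 to 0.32. Among the tested members, the same 23 and 3 genes were those whose groups did not overlap, where 39.1% of all tested genes did not overlap in the upward direction and 37.8% in the downward one. The rises were moderate, from 1.17-fold to 3.14-fold. A log2 difference of at least 1 was reached by 5 members upward (Tagln2, Myl6, Tpm3, Myl12a and Tpm4) and 1 downward (Mylk), against 5.29% and 3.41% of all tested genes. All of these but Tagln2 and Mylk lay between 1.01 and 1.06, and the number of rises was 3 without Biotin-positive replicate 2 and 1, Tagln2, under quantile normalization or with libraries scaled to an equal sum. These are bulk libraries, in which fewer cells of a type and less RNA per cell cannot be told apart. Each gene's log2 difference uses log2(FPKM + 1) and is too small for genes of low level. The labels name no separate cultures behind the 3 libraries of each group. The p-values thus reflect how much these libraries vary, and that variation may be technical.

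**Figure D1:**
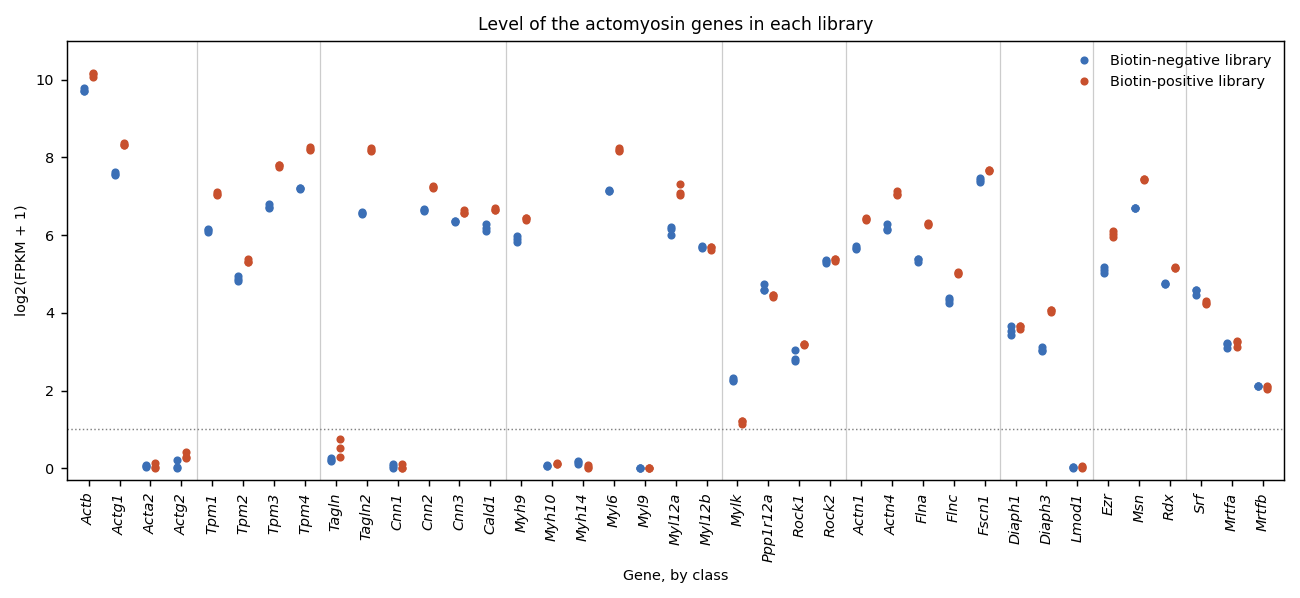
Level of the 39 genes in each library on a log2(FPKM + 1) axis, with 1 point per library, Biotin-negative left and Biotin-positive right of each gene, and vertical lines between classes. The dotted line marks 1 FPKM: 31 genes lie above it in every library and 8 lie below it in every library.

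Summed over the 39 genes, the members took 0.811, 0.787 and 0.787% of all FPKM in the Biotin-negative libraries and 1.21, 1.19 and 1.22% in the Biotin-positive ones. All 3 Biotin-positive libraries lay above all 3 Biotin-negative ones. The summed levels of the filament-building classes were higher as well, by ratios of 1.38 for actins, 1.97 for tropomyosins, 1.85 for the calponin family with caldesmon, 1.78 for myosin II chains, 1.501 for crosslinkers and 1.68 for membrane linkers, whereas the classes of myosin regulators and of SRF with its cofactors were not: the former went from 73.2 ± 3.18 to 70.6 ± 0.695 FPKM and the latter from 33.8 ± 0.986 to 29.6 ± 0.904 FPKM (means ± SD, n = 3 libraries per group). The filament nucleators went from 18.0 ± 1.17 to 27.0 ± 0.309 FPKM, a ratio of 1.503, with Diaph3 the only gene of the class that was called. Sums over a class were not tested.

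The cytoplasmic actins rose and the muscle actins of the set were near 0. Actb, which encodes beta-actin (ENSMUSG00000029580, chromosome 5, 142903115 to 142906754 on GRCm38), stood at 881, 839.9 and 840.4 FPKM in Biotin-negative and 1126, 1079.6 and 1158 FPKM in Biotin-positive libraries. Its level rank was 22 among the 21929 genes by mean FPKM over the 6 libraries. The groups did not overlap, and the rise was 1.31-fold (log2 difference 0.39, SE 0.0363, limma adjusted p = 1.56e-05). Actg1, which encodes gamma-actin, the other cytoplasmic form (ENSMUSG00000062825, chromosome 11, 120345690 to 120348542), measured 196, 186 and 190.5 FPKM in Biotin-negative and 332, 317 and 319 FPKM in Biotin-positive libraries. It rose more, 1.69-fold (log2 difference 0.75, SE 0.0322, limma adjusted p = 1.48e-07), again without overlap. Beta-actin had the highest level of the 4 in every library, while its share of the 4 actin levels moved from 81.7 ± 0.188% to 77.6 ± 0.652%. The ratio of Actb to Actg1, which does not depend on how libraries are scaled, was 4.49, 4.52 and 4.41 in the Biotin-negative libraries and 3.40, 3.40 and 3.63 in the Biotin-positive ones. A share of 57.8% of the Actg1 transcript has a near-identical match in annotated pseudogenes, so the level of Actg1 is uncertain.

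Acta2, the smooth-muscle alpha-actin that marks myofibroblasts (ENSMUSG00000035783, chromosome 19, 34241090 to 34255590), had 0.0210, 0.0374 and 0.0592 FPKM in Biotin-negative and 0, 0.0174 and 0.104 FPKM in Biotin-positive libraries. Actg2, the enteric smooth-muscle actin, was at 0, 0.158 and 0.0315 FPKM in Biotin-negative and 0.226, 0.327 and 0.197 FPKM in Biotin-positive libraries. Both lay far under the 1 FPKM needed for testing in every library. The groups overlapped for Acta2 and did not for Actg2. The skeletal muscle actin gene Acta1, which is not among the 39 but belongs to the same family, did reach testing: it stood at 1.49, 1.38 and 1.84 FPKM in Biotin-negative and 11.6, 12.6 and 13.3 FPKM in Biotin-positive libraries, a rise of 7.98-fold (log2 difference 2.40, SE 0.0819, limma adjusted p = 4.51e-08). Of the 3 actin genes tested, Acta1, Actb and Actg1, it had the largest fold and the lowest level. Of the 24 striated muscle markers that include Acta1, 4 reached testing and rose, where 37.8% of all tested genes were called higher. Besides Acta1 these were the troponin genes Tnnt2 (6.93 to 24.8 FPKM) and Tnnc1 (0.563 to 1.31 FPKM) and the light chain gene Mylpf (2.22 to 3.06 FPKM), whose call was lost in 6 alternatives, among them leaving out any 1 of 4 libraries. Tnnc1 reached 1 FPKM in the Biotin-positive group alone and so had to differ, which leaves 3 of these markers. The muscle-determining genes Myod1 and Myog and the heavy chain genes Myh1, Myh2, Myh4 and Myh8 were listed at 0 in all 6 libraries.

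All 4 tropomyosin genes rose. Tropomyosins lie along the actin filament and set which myosins and severing proteins can reach it. Tpm4 measured 148, 143 and 148 FPKM in Biotin-negative and 297, 305 and 289 FPKM in Biotin-positive libraries (log2 difference 1.01, SE 0.0306, limma adjusted p = 2.46e-08). Tpm3 had 109.8, 104 and 105 FPKM in Biotin-negative and 223, 221 and 216 FPKM in Biotin-positive libraries (log2 difference 1.05, SE 0.0314, limma adjusted p = 2.41e-08). Tpm1 was at 69.2, 66.2 and 70.8 FPKM in Biotin-negative and 136, 129.8 and 133 FPKM in Biotin-positive libraries (log2 difference 0.94, SE 0.0346, limma adjusted p = 6.47e-08). These 3 genes each came close to doubling, with ratios of 2.03, 2.07 and 1.93, and no group overlapped. Tpm2, a form abundant in muscle, rose less: it stood at 27.2, 28.2 and 30.04 FPKM in Biotin-negative and 40.4, 38.3 and 38.5 FPKM in Biotin-positive libraries, a ratio of 1.37 (log2 difference 0.44, SE 0.0443, limma adjusted p = 2.54e-05). The share of Tpm2 in the 4 tropomyosin levels went from 8.15 ± 0.412% to 5.67 ± 0.143%, that of Tpm4 from 41.9 ± 0.147% to 43.1 ± 0.713% and that of Tpm3 from 30.4 ± 0.692% to 32.0 ± 0.0835%. The summed level went from 349.8 ± 7.25 to 689 ± 10.9 FPKM. Tpm3 shares 85.4% of its transcript with the retrocopy Tpm3-rs7, which was itself at 9.75, 9.42 and 10.1 FPKM and 21.4, 20.8 and 21.3 FPKM in the same order of groups, so the levels of the pair are uncertain. Each tropomyosin gene makes several proteins from different starts and exons, and values per gene do not show which.

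Among the calponin family, the widely expressed members rose and the smooth-muscle members were near 0. Tagln2, or transgelin 2, an actin-binding relative of the smooth-muscle protein transgelin (ENSMUSG00000026547, chromosome 1, 172500047 to 172507380), measured 96.3, 91.7 and 93.4 FPKM in Biotin-negative and 303, 287 and 293 FPKM in Biotin-positive libraries. It had the largest rise among the tested genes of the set, 3.14-fold (log2 difference 1.64, SE 0.0324, limma adjusted p = 3.10e-09), and stood at position 162 of 11029 tested genes ordered from the largest rise. Its share of the levels of the 6 calponin-family and caldesmon genes went from 27.1 ± 0.488% to 46.0 ± 0.180%, so that it became the most abundant of them in Biotin-positive cells. Cnn2, calponin 2 of non-muscle cells, had 101, 96.7 and 98.3 FPKM in Biotin-negative and 154, 148 and 150.0 FPKM in Biotin-positive libraries (log2 difference 0.60, SE 0.0299, limma adjusted p = 3.40e-07). Cnn3, the acidic calponin, was at 80.9, 80.0 and 81.9 FPKM in Biotin-negative and 98.4, 93.4 and 93.1 FPKM in Biotin-positive libraries (log2 difference 0.23, SE 0.0320, limma adjusted p = 0.000217), the smallest rise that passed. Cald1, caldesmon, which holds back myosin on tropomyosin-coated filaments, stood at 72.0, 76.7 and 67.8 FPKM in Biotin-negative and 103, 98.9 and 99.5 FPKM in Biotin-positive libraries (log2 difference 0.47, SE 0.0449, limma adjusted p = 1.89e-05). None of these groups overlapped. Tagln, by contrast, measured 0.197, 0.145 and 0.162 FPKM in Biotin-negative and 0.444, 0.230 and 0.679 FPKM in Biotin-positive libraries, and Cnn1, the smooth-muscle calponin, had 0.0415, 0 and 0.0891 FPKM in Biotin-negative and 0, 0 and 0.0722 FPKM in Biotin-positive libraries. Tagln and Cnn1 were too low to test, although the Tagln groups did not overlap, and 61.8% of the Tagln transcript matches other annotated genes, Pcsk7 among them, which overlaps it.

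**Figure D2:**
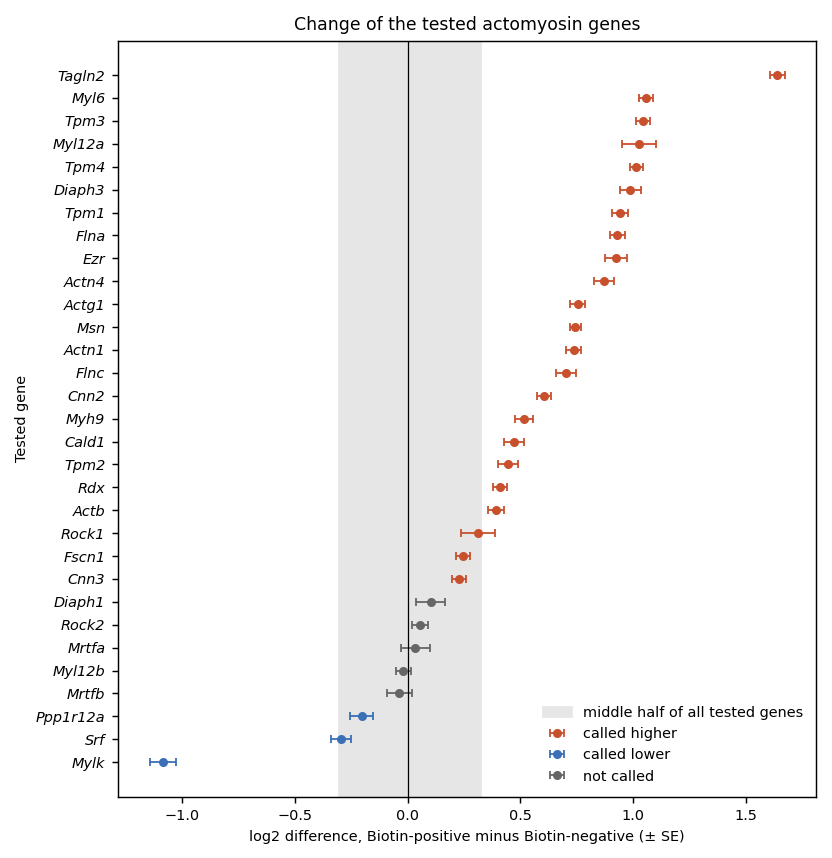
Log2 difference of each of the 31 tested genes, Biotin-positive minus Biotin-negative, with the SE from limma, ordered by size. The grey band spans the interquartile range of all 11029 tested genes (-0.30 to 0.32), and 20 of the 23 genes that rose lie to its right.

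Non-muscle myosin II consists of heavy chains, essential light chains and regulatory light chains. Myh9, the heavy chain of myosin IIA (ENSMUSG00000022443, chromosome 15, 77760587 to 77842175), was at 61.6, 56.0 and 59.0 FPKM in Biotin-negative and 85.3, 82.7 and 85.6 FPKM in Biotin-positive libraries, a rise of 1.44-fold (log2 difference 0.52, SE 0.0392, limma adjusted p = 4.51e-06). The heavy chains of myosin IIB and IIC, Myh10 and Myh14, had means of 0.0508 and 0.118 FPKM in Biotin-negative and 0.0822 and 0.0317 FPKM in Biotin-positive cells and were not tested, although the groups did not overlap for either. Myh9 was therefore the only one of the 3 heavy chain genes of the set that reached 1 FPKM. Myl6, the essential light chain, stood at 139, 142 and 140.4 FPKM in Biotin-negative and 293, 302 and 284 FPKM in Biotin-positive libraries. It rose 2.09-fold (log2 difference 1.06, SE 0.0303, limma adjusted p = 1.96e-08), a larger rise than that of Myh9. About 25.4% of its transcript has a near-identical match elsewhere.

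The regulatory light chain genes need a separate word on the annotation. Myl12a measured 72.3, 70.7 and 63.0 FPKM in Biotin-negative and 135, 158 and 130.3 FPKM in Biotin-positive libraries (log2 difference 1.03, SE 0.0766, limma adjusted p = 4.01e-06), while Myl12b had 51.3, 50.1 and 50.7 FPKM in Biotin-negative and 50.8, 51.0 and 48.4 FPKM in Biotin-positive libraries (log2 difference -0.02, SE 0.0326, limma adjusted p = 0.626). Myl12a rose without overlap and Myl12b overlapped and did not pass. With quantile normalization Myl12b was called lower (log2 difference -0.10, limma adjusted p = 0.0101), likewise with libraries scaled to an equal sum (-0.08, limma adjusted p = 0.0309), and without Biotin-positive replicate 3 its sign turned (0.01). Both genes lie on chromosome 17 and partly overlap a further annotated gene, Gm49909 (ENSMUSG00000117098, 70974119 to 71002208), on the same strand. By coordinate, Myl12b extends beyond the lower end of Gm49909 and Myl12a beyond its upper end. Gm49909 was at 188, 186 and 197 FPKM in Biotin-negative and 303, 318 and 365 FPKM in Biotin-positive libraries (0.78 on the log2 scale, limma adjusted p = 6.56e-06). Its level was above that of Myl12a and Myl12b in every library. About 32.8% of the Myl12a and 34.5% of the Myl12b transcript has a near-identical match in another annotated gene. How reads were divided among the 3 overlapping genes is not given in the sources used here. The separate levels of Myl12a and Myl12b are therefore uncertain. Myl9, the regulatory light chain of smooth muscle, was listed at 0 in all 6 libraries.

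The regulators of myosin changed in both directions. Mylk, the kinase that phosphorylates the regulatory light chain in response to calcium and calmodulin (ENSMUSG00000022836, chromosome 16, 34745210 to 35002420), stood at 4.00, 3.80 and 3.78 FPKM in Biotin-negative and 1.33, 1.32 and 1.22 FPKM in Biotin-positive libraries. It fell to 0.334 of its Biotin-negative level (log2 difference -1.09, SE 0.0576, limma adjusted p = 5.00e-07), the largest fall among the tested genes of the set, although its level was low in both groups. Ppp1r12a, the targeting subunit of myosin phosphatase, which removes that phosphate, measured 23.0, 25.8 and 23.2 FPKM in Biotin-negative and 20.9, 20.2 and 20.9 FPKM in Biotin-positive libraries and fell slightly (log2 difference -0.20, SE 0.0496, limma adjusted p = 0.00527). Rock1 had 5.82, 7.31 and 6.06 FPKM in Biotin-negative and 8.07, 8.21 and 8.19 FPKM in Biotin-positive libraries and rose (log2 difference 0.31, SE 0.0764, limma adjusted p = 0.00544). Rock2 was at 39.3, 39.9 and 37.6 FPKM in Biotin-negative and 41.1, 40.7 and 39.7 FPKM in Biotin-positive libraries and did not pass (log2 difference 0.05, SE 0.0349, limma adjusted p = 0.184), and its sign turned when libraries were scaled to an equal sum (-0.01). The 2 kinases are related, and Rock2 had the higher level in every library. Mylk and Rock act on the same light chain, and the ratio of Mylk to Ppp1r12a, kinase to phosphatase subunit, was 0.174, 0.147 and 0.163 in the Biotin-negative libraries and 0.0634, 0.0653 and 0.0585 in the Biotin-positive ones, a log2 difference of -1.37.

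All 5 crosslinker and bundler genes rose. Alpha-actinins tie antiparallel filaments in stress fibres, filamins cross filaments into networks and anchor them to integrins, and fascin packs parallel filaments into filopodia. Actn4 stood at 76.7, 69.5 and 71.0 FPKM in Biotin-negative and 138, 132 and 129 FPKM in Biotin-positive libraries (log2 difference 0.87, SE 0.0438, limma adjusted p = 3.70e-07), and Actn1 measured 51.7, 48.7 and 49.7 FPKM in Biotin-negative and 85.7, 83.8 and 82.6 FPKM in Biotin-positive libraries (log2 difference 0.74, SE 0.0333, limma adjusted p = 2.05e-07). Flna had 40.6, 38.3 and 40.5 FPKM in Biotin-negative and 76.8, 75.1 and 78.4 FPKM in Biotin-positive libraries (log2 difference 0.93, SE 0.0350, limma adjusted p = 7.30e-08), a near doubling. Flnc, the filamin best known from muscle, was at 20.0, 18.0 and 19.0 FPKM in Biotin-negative and 31.9, 30.9 and 31.7 FPKM in Biotin-positive libraries (log2 difference 0.70, SE 0.0439, limma adjusted p = 1.35e-06). Fscn1 stood at 175, 164 and 170.0 FPKM in Biotin-negative and 202, 203 and 199 FPKM in Biotin-positive libraries. Fascin had the highest level of the class in both groups and the smallest change, 1.19-fold (log2 difference 0.25, SE 0.0316, limma adjusted p = 0.000124). No group of the 5 genes overlapped, and the summed level of the class went from 351 ± 12.9 to 527 ± 7.20 FPKM.

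The Diaphanous formins parted. Diaph3 measured 7.72, 7.28 and 7.10 FPKM in Biotin-negative and 15.1, 15.7 and 15.9 FPKM in Biotin-positive libraries, a rise of 2.12-fold (log2 difference 0.99, SE 0.0483, limma adjusted p = 3.20e-07). Diaph1, the other formin tested in the set, had 11.6, 9.74 and 10.5 FPKM in Biotin-negative and 11.6, 11.6 and 11.04 FPKM in Biotin-positive libraries and did not pass (log2 difference 0.10, SE 0.0630, limma adjusted p = 0.173), although it passed without Biotin-negative replicate 1 (limma adjusted p = 0.0343). Diaph1 had the higher level of the pair in every Biotin-negative library and Diaph3 in every Biotin-positive one. Lmod1, the smooth-muscle leiomodin that starts filaments, had means of 0.0230 and 0.0198 FPKM and was not tested.

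The 3 genes of ezrin, radixin and moesin, which tie cortical filaments to the plasma membrane, rose. Msn, moesin, was at 103, 103 and 102 FPKM in Biotin-negative and 175, 170.4 and 173 FPKM in Biotin-positive libraries (log2 difference 0.74, SE 0.0257, limma adjusted p = 4.81e-08). Ezr, ezrin, the form typical of epithelia, stood at 35.1, 31.8 and 33.6 FPKM in Biotin-negative and 68.1, 61.1 and 64.1 FPKM in Biotin-positive libraries (log2 difference 0.92, SE 0.04996, limma adjusted p = 5.54e-07). Rdx, radixin, measured 25.7, 26.5 and 25.9 FPKM in Biotin-negative and 34.7, 35.4 and 34.6 FPKM in Biotin-positive libraries (log2 difference 0.41, SE 0.0323, limma adjusted p = 5.77e-06). Moesin was the most abundant of the 3 in every library, with a share of their summed level of 63.3% and 63.5%. The share of ezrin went from 20.6 ± 0.844% to 23.7 ± 0.833% and that of radixin from 16.0 ± 0.377% to 12.8 ± 0.382%.

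Srf fell, and neither MRTF gene passed the test. Srf (ENSMUSG00000015605, chromosome 17, 46548329 to 46556175) had 23.1, 21.2 and 23.0 FPKM in Biotin-negative and 18.6, 18.0 and 17.7 FPKM in Biotin-positive libraries. The fall was to 0.807 of the Biotin-negative level (log2 difference -0.29, SE 0.0455, limma adjusted p = 0.000390), with no overlap. Mrtfa was at 8.38, 8.24 and 7.53 FPKM in Biotin-negative and 8.75, 8.43 and 7.63 FPKM in Biotin-positive libraries (log2 difference 0.03, SE 0.0643, limma adjusted p = 0.648), and Mrtfb stood at 3.32, 3.36 and 3.33 FPKM in Biotin-negative and 3.09, 3.27 and 3.33 FPKM in Biotin-positive libraries (log2 difference -0.04, SE 0.0548, limma adjusted p = 0.563). The groups overlapped for both cofactor genes, and the sign of Mrtfa turned in 3 of 16 alternatives. MRTF activity is set by movement between cytoplasm and nucleus and not only by transcript level, which these libraries do not measure. The actin, calponin and light chain genes with a CArG box shown above, Actg1, Cnn2 and Myl6, rose, and Srf, whose promoter holds a pair of CArG boxes, fell in the same libraries.

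Ratios within a library do not move with the scaling of that library, so related genes were set against each other. Of 17 pairs, 15 had values above 0 throughout and were compared. For the 13 pairs with both genes tested, 12 did not overlap between the groups. Among all single tested genes, 39.1% did not overlap upward and 37.8% downward. The share among pairs of other genes was not computed, so the count cannot be called particular to these pairs. With 3 libraries against 3, an exact two-sided permutation test cannot go below p = 0.1, and each of the 12 pairs stood at that value (Benjamini-Hochberg adjusted p = 0.125 over the 15 pairs). The ratio of Myl12a to Myl12b was 1.41, 1.41 and 1.24 in the Biotin-negative libraries and 2.66, 3.10 and 2.69 in the Biotin-positive ones (log2 difference 1.06), with the limit on their annotation given above. Diaph3 to Diaph1 lay below 1 in one group and above 1 in the other, with 0.668, 0.747 and 0.675 in the Biotin-negative libraries and 1.30, 1.35 and 1.44 in the Biotin-positive ones (log2 difference 0.97). Tpm2 to Tpm3 was 0.248, 0.272 and 0.286 in the Biotin-negative libraries and 0.181, 0.173 and 0.178 in the Biotin-positive ones. The log2 difference was -0.60 for that pair, -0.36 for Actb to Actg1, -0.33 for Rdx to Msn and -0.22 for Flnc to Flna. It was 0.38 for Cnn2 to Cnn3, 0.30 for Rock1 to Rock2 and 0.19 for Ezr to Msn. Actn1 to Actn4 (-0.13) and Tpm1 to Tpm4 (-0.07) had the smallest differences of the 12, and all 4 of these genes rose. Mrtfa to Mrtfb overlapped (log2 difference 0.09, exact permutation p = 0.4). The remaining pairs each hold an untested gene, and their ratios, Tagln to Tagln2 and Myh9 to Myh10, overlapped as well (exact permutation p = 0.6 and p = 0.3).

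**Figure D3:**
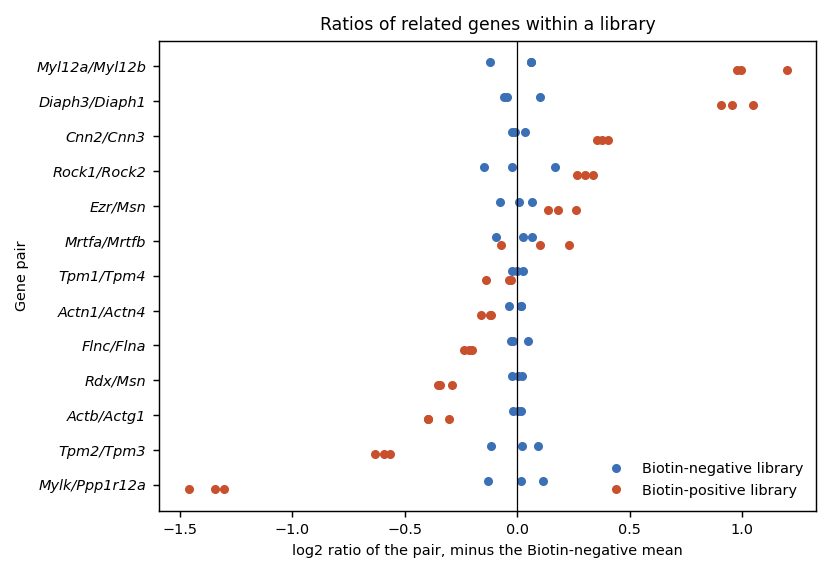
Log2 ratio of each of the 13 gene pairs in each library, minus the mean of the Biotin-negative libraries, so that 0 is the Biotin-negative level. Blue and red points separate for 12 pairs and overlap for Mrtfa to Mrtfb.

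Other genes of the pathway, taken from 8 lists, were read from the same fit. Of 77 tested genes 44 rose and 22 fell, where 37.8% and 36.1% of all tested genes were called. Values below are means ± SD over 3 libraries or single means. Of the 77, 9 reached 1 FPKM in 1 group alone and so had to differ. Among the other 68, 35 rose and 22 fell, with a median log2 difference of 0.13.

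Targets of SRF with MRTF outside the set rose in 8 and fell in 2 of 14 tested genes, with a median log2 difference of 0.27 (0.26 without Ccn2, which reached 1 FPKM in 1 group alone). Ccn1, a matricellular gene that SRF shares with YAP, rose 8.38-fold (limma adjusted p = 2.80e-10), Ankrd1 from 40.5 ± 0.733 to 83.5 ± 2.63 FPKM and the adhesion gene Vcl, vinculin, from 7.94 ± 0.795 to 15.2 ± 0.358 FPKM. Other genes of the list, Ankrd1 and Ccn2 among them, may be shared with YAP as well, which was not checked. Which factor lay behind any change was not tested. Ccn2 was listed at 0 throughout the Biotin-negative group and had 1.97, 1.40 and 1.76 FPKM in the Biotin-positive libraries. The genes that fell were Nexn (42.2 to 27.0 FPKM) and Tgfb1i1 (14.4 to 9.45 FPKM), both named after their values were seen, and Zyx, Fhl2, Pdlim5 and Csrp2 did not pass. The immediate-early genes that SRF drives with TCF factors went both ways, 4 up and 3 down of 7, or 3 up and 3 down without Fosb, which reached 1 FPKM in 1 group alone. Egr1 fell from 41.4 ± 0.356 to 13.3 ± 0.567 FPKM and Ier2 from 44.2 ± 0.354 to 25.7 ± 0.785 FPKM, whereas Junb rose from 48.3 ± 1.75 to 83.6 ± 2.17 FPKM and Fosb from 0.393 ± 0.0317 to 2.24 ± 0.107 FPKM. Of the TCF genes themselves, Elk3 rose from 20.9 to 23.9 FPKM, Elk1 fell from 8.50 to 7.55 FPKM, a call lost when any 1 of 5 libraries was left out, and Elk4 did not pass.

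Partners of the myosin phosphatase changed in each of 6 tested genes, 4 up and 2 down. Ppp1r12b, a relative of Ppp1r12a, fell from 11.7 ± 0.649 to 4.45 ± 0.157 FPKM, and Ppp1cb, the catalytic subunit that Ppp1r12a binds, fell from 58.6 ± 8.05 to 38.8 ± 0.446 FPKM. The other catalytic subunit genes Ppp1ca (85.9 to 122 FPKM) and Ppp1cc (81.8 to 99.9 FPKM) rose, as did the inhibitor gene Ppp1r14b from 149 ± 2.12 to 199 ± 2.83 FPKM and Ppp1r12c. Ppp1r12a and Ppp1cb were both lower, while Ppp1r12c, another relative of Ppp1r12a, went from 29.9 to 32.9 FPKM. The level of the enzyme itself was not measured.

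Linkers of stress fibres and adhesions rose in 15 and fell in 4 of 22 tested genes, and in 11 and 4 of the 18 with at least 1 FPKM in both groups (median log2 difference 0.26). Pdlim1 was at 0.0934, 0.0287 and 0.0865 FPKM in Biotin-negative and 11.2, 11.9 and 10.5 FPKM in Biotin-positive libraries. Marcks was listed at 0 throughout the Biotin-negative group and had 8.34, 7.90 and 8.94 FPKM in the Biotin-positive libraries. Dbn1, drebrin, rose from 0.559 ± 0.136 to 3.67 ± 0.359 FPKM and Enah from 0.00327 ± 0.00567 to 1.26 ± 0.216 FPKM. Each of these 4 genes reached 1 FPKM in the Biotin-positive group alone. Those that fell were Lpp, Svil, Pdlim2 and Lima1. Other formins and tropomodulins were mixed (6 up, 3 down and 2 not passing of 11). Of the 8 with at least 1 FPKM in both groups 3 rose and 3 fell, and the median log2 difference was 0.13 over the 11 and -0.05 over the 8. Daam1 rose from 6.16 ± 0.305 to 12.2 ± 0.0271 FPKM and the filament-capping gene Tmod1 fell from 3.04 ± 0.195 to 0.895 ± 0.205 FPKM. Fmn1 rose from 0.635 ± 0.143 to 2.40 ± 0.0931 FPKM and Fmnl1 from 0.137 ± 0.0132 to 1.33 ± 0.0908 FPKM. Unconventional myosins, which carry cargo or tension on membranes, were divided as well (4 up, 6 down and 1 not passing of 11), with Myo1c up from 42.3 ± 0.514 to 82.7 ± 2.13 FPKM and with Myo1d (11.9 to 4.17 FPKM), Myo18a (20.0 to 10.4 FPKM) and Myo7a (12.3 to 6.45 FPKM) down. Of plastins and spectrins, Pls3 (23.9 to 30.4 FPKM) and Sptan1 (50.8 to 62.1 FPKM) rose and Sptbn1 fell (32.0 to 23.2 FPKM).

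**Figure D4:**
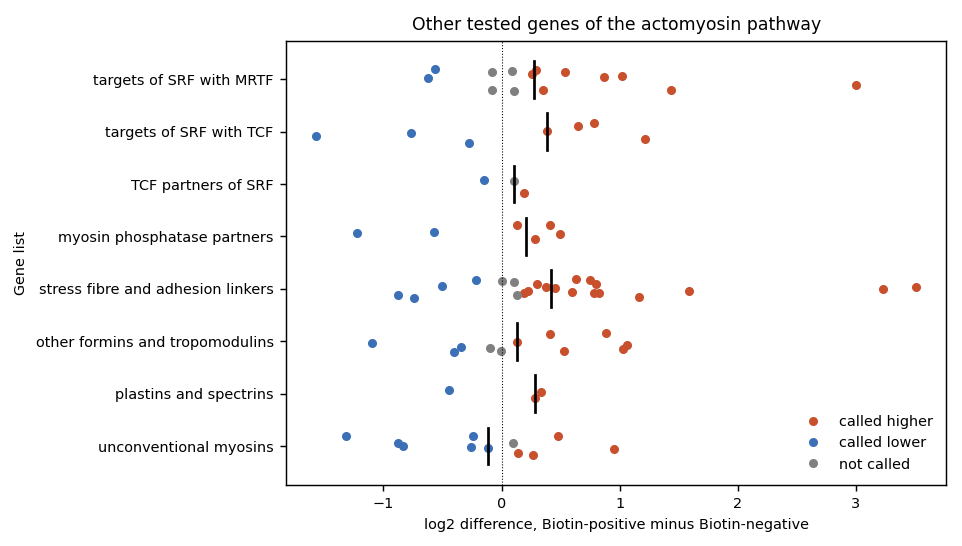
Log2 difference of each tested gene in 8 lists of pathway genes outside the 39, coloured by call, with a black bar at the median of each list. The median is 0.42 for linkers of stress fibres and adhesions, or 0.26 over those with at least 1 FPKM in both groups, and -0.12 for unconventional myosins.

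Most smooth-muscle differentiation genes were near 0, with some exceptions among the further markers. Acta2, Actg2, Tagln, Cnn1, Myl9 and Lmod1 together never exceeded 0.679 FPKM for any 1 gene in any 1 library. Among 12 further smooth-muscle markers, Myh11 and Myocd had means of at most 0.0162 FPKM, Pln and Itga8 were listed at 0 throughout, and 4 reached testing. Des, the muscle intermediate filament gene, fell from 12.01 ± 0.299 to 8.99 ± 0.573 FPKM and Ldb3 from 1.56 ± 0.158 to 0.669 ± 0.0584 FPKM, Smtn, smoothelin, did not pass (20.1 ± 1.58 to 18.0 ± 0.750 FPKM), and the adhesion molecule gene Mcam rose from 0.276 ± 0.174 to 12.7 ± 1.38 FPKM. Ldb3 and Mcam reached 1 FPKM in 1 group alone and so had to differ. The summed markers lay at 33.2 to 36.3 FPKM in Biotin-negative and 40.2 to 41.4 FPKM in Biotin-positive libraries. The higher sum rests on Mcam, the only tested marker of this list that rose.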

How the data were processed

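RNA of 6 L929 libraries was analysed, 3 per group as the labels give them. Per the submitters' processing notes, cutadapt 1.9.1, HISAT2 2.2.1, HTSeq 0.6.1 and GRCm39 were used; the maker of the FPKM values, their denominator and the strand setting are not given in the sources used here. The authors deposited 1 table of FPKM values. The coordinates in the file are those of GRCm38: of 21816 genes matched by identifier, 99.1% had the same start and end as in GENCODE vM21, so coordinates are given on that build.

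FPKM values were put on a log2 scale after a pseudocount of 1 was added. A gene was tested if 3 or more libraries reached 1 FPKM, by limma 3.58.1 under R 4.3.3 (eBayes with trend, two-sided) and Benjamini-Hochberg adjustment over all tested genes at 0.05, a procedure tested on simulated data. Pair ratios used exact permutation tests in scipy 1.17.1. Near-identical copies of the 39 genes were searched in GENCODE vM21 transcripts with blastn 2.17.0 (at least 98% identity over 100 bases). All 39 genes are accounted for; from each other list up to 4 called genes with the largest change are named, or the 2 highest tested ones where none was called (no endothelial marker was tested), and any further gene was named after its values were seen. One planned list and a single gene of another are not reported here. The genes and lists were chosen with earlier results of these data known. Equal replicate numbers are not said to belong together: deviations of same-numbered libraries correlated at 0.01 to 0.04.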

Additional observations from a re-analysis of the deposited data

How the results depend on the processing

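The fit was repeated under 16 alternatives: pseudocounts of 0.1 and 0.5, no filter, a minimum of 5 FPKM, 3 other scalings, eBayes without trend or with a robust prior, the replicate block, and each of 6 libraries left out. All 26 called members kept their direction and call wherever they were tested (415 of 415 values); Mylk was not tested at a minimum of 5 FPKM. The members called higher numbered 23 to 25 and those called lower 2 to 4. Members with a log2 rise of at least 1 numbered 1 under quantile normalization and under an equal sum of FPKM, against 5, and 3 to 6 with a library left out; those with such a fall numbered 0 at a minimum of 5 FPKM, against 1, because Mylk was then not tested. Among members that did not pass, the sign turned for Rock2 (-0.0056) and Mrtfa (-0.0212) with an equal sum of FPKM. With a library left out, the log2 difference of Mrtfa ranged from -0.0081 (without Biotin-negative replicate 3) to 0.0846 (without Biotin-positive replicate 3), and that of Myl12b from -0.0314 (without Biotin-positive replicate 2) to 0.0051 (without Biotin-positive replicate 3); the cause was not tested. With the replicate block, 23 members were higher and 3 lower, as without it; a paired exact test of the ratios cannot go below p = 0.25, and 13 pairs moved 1 way in all 3 numbered pairs, against 12 of 15 without overlap. A pseudocount of 1 moved the Mylk to Ppp1r12a difference to -0.88. Depth is unknown, so the precision of low values rests on 3 libraries per group.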
